A study of Mus musculus with 8 samples.

Results

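The actins, tubulins, keratins, myosins and the proteins that go with them form the cytoskeleton of the liver cell, and their transcripts were followed on 8 arrays of mouse liver RNA. Members were all probe sets on the array whose platform annotation gives a single gene symbol beginning Tuba, Tubb, Tubg, Krt, Actn, Actr or Tpm, or Myl or Myh followed by a digit, or equal to Actb, Actg1, Acta1, Acta2, Actg2, Vim or Des; 1 skeletal myosin heavy chain gene was left out of the rule. The rule took 100 of the 8252 genes that the annotation names alone on a probe set, read by 142 of 12488 probe sets, and used no measured value. It goes by letters, so that 3 genes came in by name alone: Tpmt, a thiopurine methyltransferase, Krtcap2, a subunit of the enzyme that attaches sugar chains to new proteins, and Krtdap, an epidermal differentiation gene. A further 7 probe sets whose annotation joins a member to other genes were left out.

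Affymetrix U74Av2 arrays read a transcript with a set of short probes placed toward its 3′ end, and each array carried the total liver RNA of 1 mouse. All 8 animals were phenotypically normal female Ames mice, +/+ or +/df at the Ames dwarf locus, a distinction the labels do not make for any single animal. All had 30% less food than freely fed normal females ate, and livers were taken at an age of 24 to 26 months. There is therefore 1 group (n = 8), with no freely fed and no dwarf animals analysed here, and the spread between arrays holds animal and technical differences together. In whole liver, fewer cells of a type and less RNA per cell cannot be told apart. Markers of hepatocytes were present, as the labelled tissue requires: 9 of 9 measured marker genes, among them Alb and Apoa1, were above the level filter described below, with a median SD of 0.07 in log2 units.

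Actin filaments, microtubules and intermediate filaments are the 3 filament systems of the cell. Actin is built by cells of every kind as beta- and gamma-actin, which nonmuscle myosin pulls on and tropomyosin and alpha-actinin wrap and bundle, while muscle cells make actins and myosins of their own. Microtubules are polymers of paired alpha- and beta-tubulin, started from rings that hold gamma-tubulin. Keratins assemble as pairs of a type I and a type II chain. The hepatocyte makes keratins 8 and 18 only, bile duct cells add keratins 7 and 19, and the hair keratins belong to the hair and its follicle. Desmin and vimentin mark the liver's stellate and other mesenchymal cells.

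Values are probe set intensities after quantile normalization, called signal here, in arbitrary units. Since probe sets differ in how well they bind, one probe set's signal is not set against another's. Of the 136 member probe sets that are not array controls, 54 (39.7%), for 45 genes, had a mean level above the median of all probe sets (149 signal), and these 54 are called measured below. The other 82 had mean signals between 2.70 and 165, and 55 genes had only such probe sets; a mean signal can pass 149 where the mean log2 level does not. The remaining 6 are control probe sets for beta-actin. Of the 54 measured sets 16 carry a suffix that marks probes shared with related transcripts, and 9 of the 45 genes had several measured probe sets, which read the same transcript and are not replicates. Some measured genes also had probe sets below the filter, not all of which are given below.

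The spread between animals was tested for every measured probe set against a variance that follows its level (limma, 1-sided, 6211 probe sets tested). None of the 54 members passed at an adjusted p of 0.05, against 0% of the array as a whole, and the lowest adjusted p among them was 0.865. At an unadjusted p under 0.05 limma named 2 members, 3.7% of 54, where the share over the array was 5.67% (352 of 6211). Size of spread alone set the members a little above the rest. The highest array was over 2 times the lowest for 26 of 54 members (48.1%), against 38.6% over the array. Median SDs were 0.33 (members) and 0.28 (array) in log2 units, and median coefficients of variation 21.7% and 19.5%. In 34 of 54 the variance lay above the level-matched prior, against 53.4% over the array.

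Replicates 5 and 6 had been set apart in an earlier account of these arrays by 3′ to 5′ ratios of control sets, replicate 6 by far less than replicate 5. The 3′ control set of Gapdh, a glycolytic enzyme used as a loading standard, read 18.2 times its 5′ control set on replicate 5 and 1.22 times on replicate 6, and 0.83 to 0.891 times on the other arrays. A 3′ to 5′ ratio of this kind is used as a measure of how complete the labelled RNA is; the part of RNA quality in the results on members was not tested. Replicate 5 held the lowest value for 13 members (24.1%, against 28.7% over the array) and the highest for 11 (20.4%, against 33.2%). For replicate 6 these counts were 7 (13.0%, against 16.3%) and 8 (14.8%, against 18.4%). Replicate 2 held the lowest value for 11 members, 20.4%, where the share over the array was 10.1%. Without replicates 5 and 6 the level filter was run again. It again kept 54 member sets, with the Actn1 set 92280_at in place of the Tubb3 set 161612_f_at. Of these, 12 exceeded 2-fold (22.2%, against 10.9%), and limma named 8 at an unadjusted p under 0.05, where the share over the array was 6.15%. None passed limma's test after adjustment (0% over the array), and the lowest adjusted p was 0.534. Those 8 were single probe sets of Tuba1a, Myh9, Krt6a, Krt17, Myl12b, Tubb5, Tubb2a and Krt81.

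**Figure D1:**
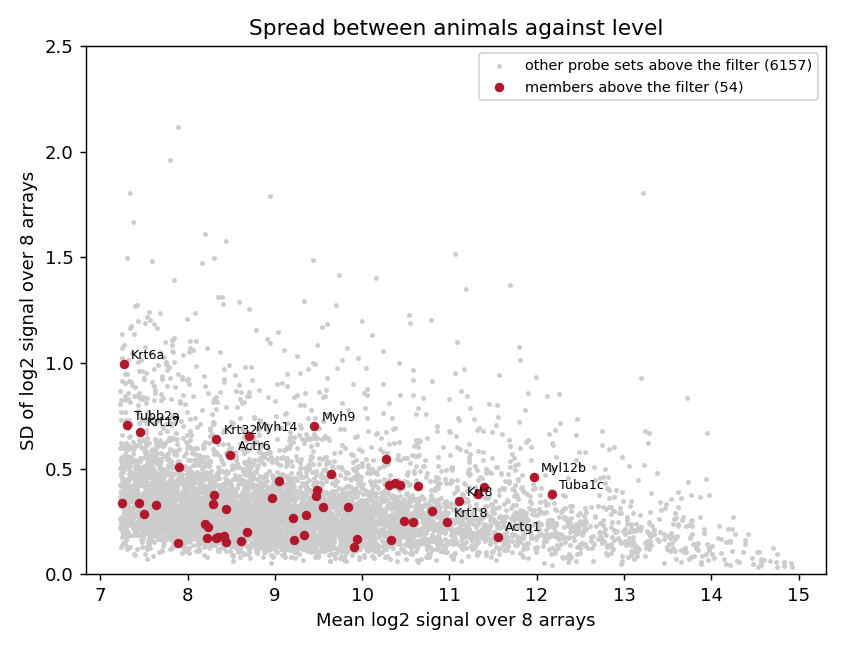
Spread between animals (SD of log2 signal over 8 arrays, vertical) against mean log2 signal (horizontal) for all 6211 probe sets above the level filter, members in red. The members lie through the grey cloud, with single sets of Krt6a (SD 0.99), Tubb2a (0.70), Myh9 (0.70) and Krt17 (0.67) the highest of them, and no member is called by limma's variance test.

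**Figure D2:**
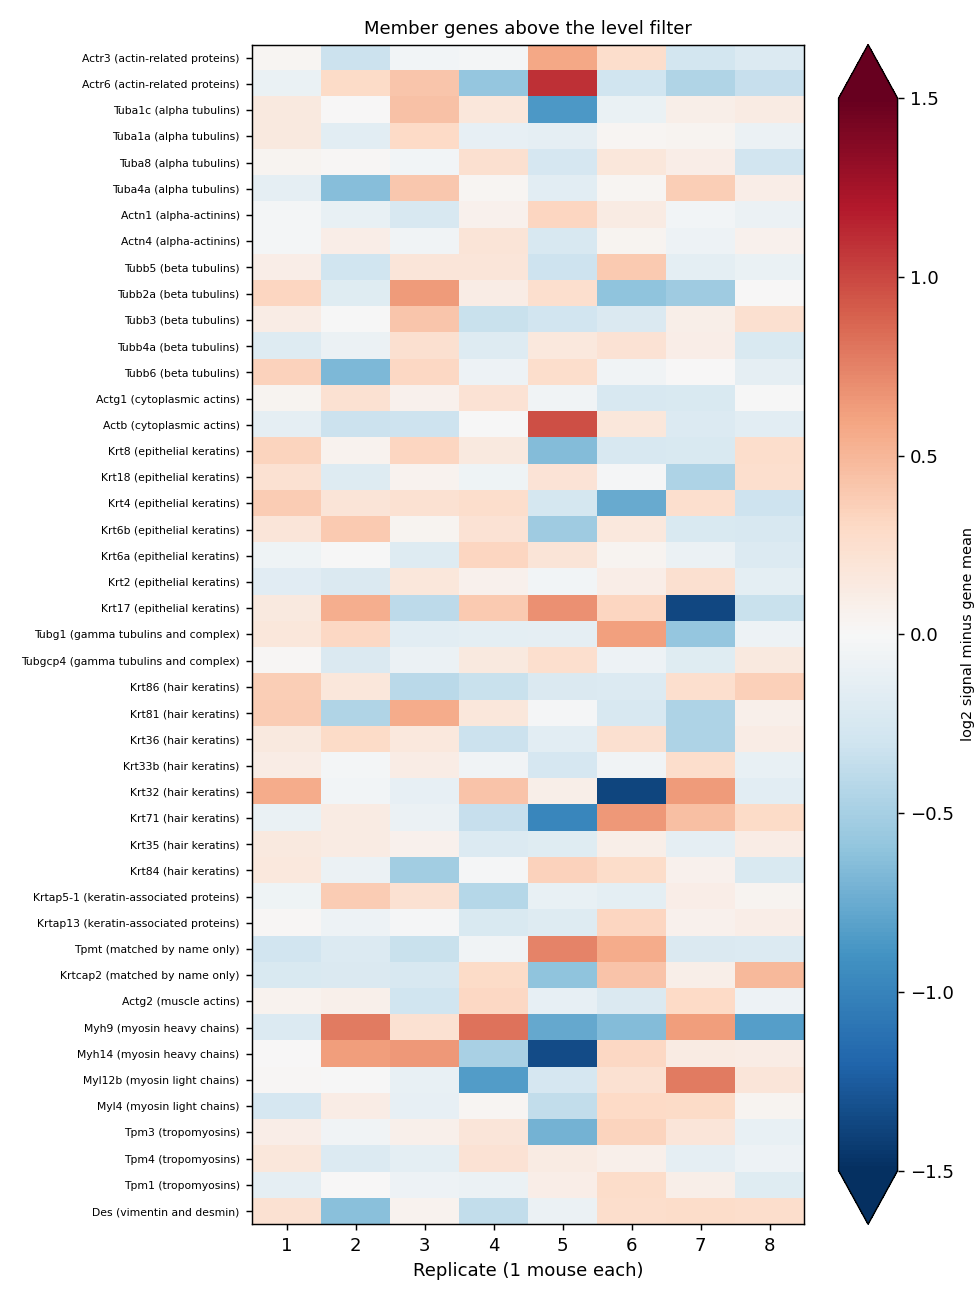
The 45 member genes above the level filter, 1 row per gene by its brightest probe set, grouped by family. Colour is the log2 signal on each array minus the mean of the gene over 8 arrays; the columns of replicates 5 and 6 hold cells of both colours, and the deepest blue cells are Krt17 on replicate 7 (68.0 signal), Krt32 on replicate 6 (123) and Myh14 on replicate 5 (164).

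Beta-actin (Actb), the actin most used as a loading standard, had the most probe sets, and these differed in which arrays were high. The 3′ control set read 2698, 8171, 4106, 8286, 854, 1267, 8856 and 2050 signal on replicates 1 to 8 (mean 4536 ± 3379, SD, n = 8). Replicates 2, 4 and 7 were high, replicate 3 lay between, and replicates 5 and 6 were lowest, a 10.4-fold range that was 10.2-fold on the deposited scale. The middle control set read 1844, 5415, 3129, 5380, 619, 938, 5262 and 1814 (8.74-fold), and the 5′ control set 1589, 4830, 2676, 5418, 364, 695, 5506 and 1446 (15.1-fold). All 3 therefore put replicates 2, 4 and 7 highest and replicates 5 and 6 lowest.

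The 3′ set of Actb read 1.42 to 2.34 times its 5′ set, with the highest ratio on replicate 5. On replicate 6 it was 1.82, near the 1.7 of replicate 1 and the 1.69 of replicate 2. The 3 control sets for the opposite strand stayed between 20.7 and 121 signal.

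The ordinary Actb probe sets had other array orders. Set 101578_f_at read 1256, 1102, 1115, 1367, 2688, 1550, 1198 and 1230 (mean 1438 ± 525, SD, n = 8), so that replicate 5, lowest by the control sets, was here the highest. Set 95705_s_at read 1005, 1114, 974, 739.6, 383, 847, 829.4 and 745 (mean 829.7 ± 223, SD, n = 8), with replicate 5 lowest again but replicates 4 and 7 in the lower part. The highest array of the one was the lowest of the other, with 2.44-fold and 2.90-fold ranges. Neither passed limma's test (adjusted p = 0.989 for both); the control sets were not in that test.

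**Figure D3:**
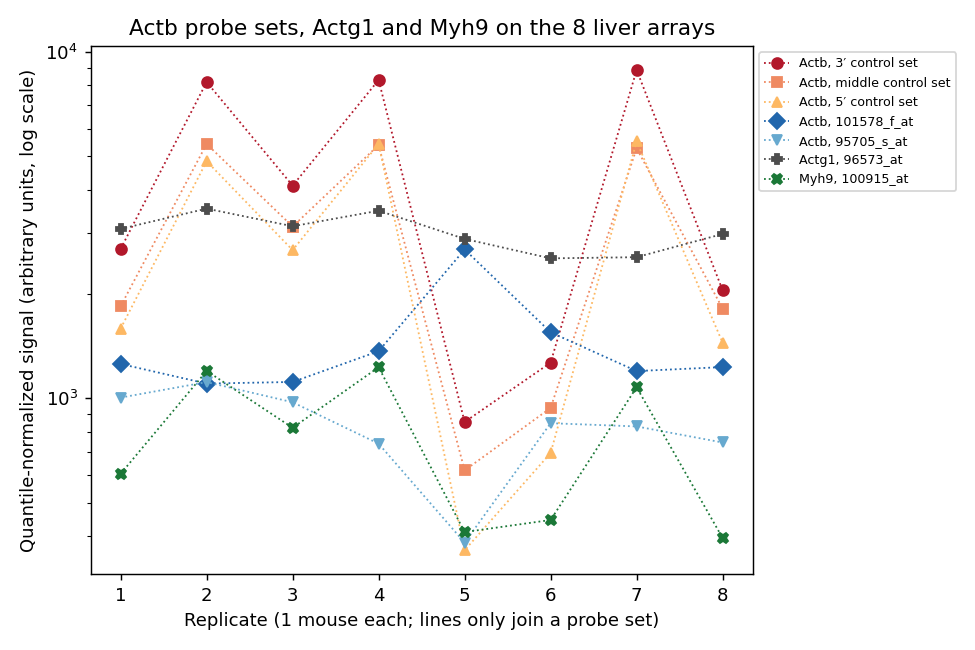
Signal (log axis, arbitrary units) of the 3 sense control sets and 2 ordinary probe sets of Actb, of Actg1 and of Myh9 on replicates 1 to 8, 1 mouse each; dotted lines only join the points of a probe set. The control sets and Myh9 are high on replicates 2, 4 and 7 and low on 5 and 6, 101578_f_at peaks at 2688 on replicate 5, and Actg1 stays between 2533 and 3525.

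Gamma-actin (Actg1), the other cytoplasmic actin, had a narrower range on these arrays. It read 3080.5, 3525, 3135, 3477, 2883, 2533, 2553 and 2979 signal (mean 3021 ± 369.6, SD, n = 8), a 1.39-fold range with a coefficient of variation of 12.2%. Its array order was not that of the 101578_f_at set of Actb: Pearson's r between Actg1 and that set was -0.29 (exact 2-sided permutation p = 0.527, adjusted 0.617 over 3 pairs, Spearman's rho -0.52, p = 0.197). Without replicates 5 and 6, also the 2 arrays farthest from the Actb median, r was 0.05, so the sign rests on those arrays. With the 3′ control set in place of 101578_f_at, an alternative added after the data were seen, r over 8 arrays was 0.44 (exact permutation p = 0.265). The other ordinary Actb set, 95705_s_at, was highest on replicate 2, as Actg1 was, and no r is given for it alone.

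Nonmuscle myosin heavy chain IIA (Myh9), the motor that pulls on cytoplasmic actin, had the lowest p of all members. Its set 100915_at read 606, 1199, 822, 1229, 411, 445.5, 1076 and 395 signal (mean 773 ± 357, SD, n = 8), a 3.11-fold range (limma, unadjusted p = 0.0339, adjusted p = 0.865). Replicates 2, 4 and 7 were again high, and replicates 5, 6 and 8 low. Without replicates 5 and 6 the range was 3.07-fold and the unadjusted p was 0.0058 (limma, adjusted p = 0.534). A second set, 102108_f_at, read 516, 559, 586, 658, 913, 367, 419 and 382, and had its highest value on replicate 5, where the first set was among its lowest.

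The promoters of Actg1 and Myh9 are shown because 1 gene had a narrow and the other, by 1 of its sets, a wide range within the same filament system. Sequences are RefSeq's, on GRCm38.p6, from 250 bases before to 50 after the annotated start, on the gene's own strand: Actg1 at chr11:120348446-120348745 (minus strand) and Myh9 at chr15:77842126-77842425 (minus strand). Capitals mark matches on either strand, overlaps allowed, to 4 motifs: the letters TATAAA of the TATA box, CCAAT of the CAAT box, GGGCGG of the GC box that Sp1 binds, and the CArG box that serum response factor binds.
Actg1: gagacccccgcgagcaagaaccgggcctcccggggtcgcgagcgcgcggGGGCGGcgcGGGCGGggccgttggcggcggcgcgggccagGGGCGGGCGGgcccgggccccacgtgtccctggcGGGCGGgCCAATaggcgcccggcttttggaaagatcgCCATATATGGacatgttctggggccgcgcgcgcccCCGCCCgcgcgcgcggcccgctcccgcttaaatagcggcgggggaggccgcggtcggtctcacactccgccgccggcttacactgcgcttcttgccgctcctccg
Myh9: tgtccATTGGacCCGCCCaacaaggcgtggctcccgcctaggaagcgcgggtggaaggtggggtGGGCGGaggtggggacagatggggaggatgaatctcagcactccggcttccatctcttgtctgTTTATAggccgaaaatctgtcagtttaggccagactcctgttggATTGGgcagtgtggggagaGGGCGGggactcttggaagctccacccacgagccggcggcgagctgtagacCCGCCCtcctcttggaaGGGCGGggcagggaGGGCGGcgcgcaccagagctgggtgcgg
Actg1 held 1 CArG box, CCATATATGG, 1 CCAAT match and 6 GGGCGG matches, and no TATAAA match. Myh9 held 2 CCAAT, 6 GGGCGG and 1 TATAAA matches, and no CArG box match. Actb, Actg2, Krt19 and Myh11 are among the members without an entry in the promoter table, so their promoters were not searched. Of the 79 member genes with an entry in the promoter table, 7 held a CArG box match (Acta1, Actg1, Krt12, Myl3, Myl6, Myl7 and Myl9), and Actg1 alone of the 34 measured ones. The same match was held by 1.81% of all 27025 genes there and by 1.63% of all 32851 windows. TATAAA was matched in 34 of the 79 members and 9 of the 34 measured ones (15.7% of genes, 13.6% of windows). CCAAT was matched in 39 and 19 (41.1% of genes, 37.4% of windows), and GGGCGG in 28 and 18 (38.2% of genes, 35.7% of windows).

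The other myosins varied by single arrays. Myh14, nonmuscle heavy chain IIC, read 417, 644, 651, 296, 164, 516, 452 and 450.5 signal, lowest on replicate 5 and next lowest on replicate 4 (3.97-fold; limma, unadjusted p = 0.0554, adjusted p = 0.896). Myl12b, a regulatory light chain of nonmuscle myosin, read 4049, 3995, 3706, 2243, 3350, 4680, 6875 and 4526, lowest on replicate 4 and highest on replicate 7. Since neither extreme lay on replicate 5 or 6, its 3.06-fold range was 3.04-fold without them (limma, unadjusted p = 0.0057, adjusted p = 0.534). Myl4, the atrial light chain, ran from 227 to 359.5 (mean 297). Among the families, myosin heavy chains had the highest median SD, 0.65 on the log2 scale over 3 measured sets.

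Of 6 measured sets of tropomyosins and alpha-actinins, which bind along actin filaments, 4 had an SD under the array's median of 0.28 and those of Tpm3 and 1 Actn1 set were above it. The tropomyosins had a median SD of 0.16 over 3 measured sets. Tpm3 read 979.9, 881, 963, 1041, 560 on replicate 5, then 1150.5, 1037 and 846, so that replicate 5 lay well below the next lowest, 846. The other Tpm3 set, 93265_at, was below the filter at 17.2 to 46.8. Tpm1 ran from 306 to 420.4 (1.37-fold) and Tpm4 from 514 to 689 (1.34-fold). The alpha-actinins, which bundle filaments, had a median SD of 0.17: Actn4 read 944, 1027, 926, 1102, 816, 992, 908.5 and 1001, a 1.35-fold range. Actn1 ran from 831 to 1221 by set 104578_f_at, highest on replicate 5, and from 206 to 404.9 by 104579_r_at, lowest on replicate 6 (1.96-fold). A further Actn1 set, 92280_at, fell below the level filter, with 10.9 on replicate 5, 48.1 on replicate 6 and 165 to 247 elsewhere.

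Both measured actin-related proteins were highest on replicate 5. Actr3, a core subunit of the Arp2/3 complex that starts branches, read 1816, 1416, 1728, 1736, 2655, 2132, 1464 and 1547. Actr6, a nuclear relative found in chromatin remodelling complexes, read 335, 438, 479.9, 240.1, 767, 291, 262 and 282 (3.19-fold; limma, adjusted p = 0.962). Without replicate 5 Actr6 still ran from 240.1 to 479.9.

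Tubulins differed mostly at their extremes. Tuba1c, an alpha-tubulin, read 5114, 4649, 6290, 5194, 2557, 4310, 4921 and 5023 signal (mean 4757 ± 1057, SD, n = 8), with 7 arrays at or above 4310 and replicate 5 alone far below. Tubb5, the main beta-tubulin outside nerve, read 1525, 1156, 1618, 1612, 1149, 1864, 1289 and 1332 by set 94788_f_at (mean 1443 ± 253, SD, n = 8), highest on replicate 6. Over 8 arrays the 2 chains gave r = 0.49 (exact permutation p = 0.219, adjusted 0.617; rho 0.50, p = 0.216), and r = -0.25 without replicates 3 and 5, the arrays farthest from the Tuba1c median. The relation depends on single arrays: without replicate 6 their rank orders were identical (rho 1.0, r = 0.72, exact permutation p = 0.000198, the smallest that 7 arrays can give, adjusted 0.000595), and without replicate 5 r was 0.09 (p = 0.864, exact permutation). Without both, r was 0.76 (exact permutation p = 0.05, adjusted 0.075), while the rank orders were again identical (rho 1.0, exact permutation p = 0.00278, unadjusted).

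Several tubulin genes had 2 measured sets, which shared the lowest or the highest array in Tuba1a, Tubb2a and Tubb5 and neither in Tubb3. Tuba1a read 1435, 723.5, 1250.3, 2239, 861, 903, 1558 and 1577 by set 100342_i_at, a 3.09-fold range, and 1149 to 1584, a 1.38-fold range, by 100343_f_at; both were lowest on replicate 2. Tubb2a was lowest on replicates 6 and 7 by both its sets: 94835_f_at read 1577, 1116, 1965, 1369.6, 1502, 831, 877 and 1269.6, and 161614_r_at 168, 146, 267, 219, 296, 75.3, 90.0 and 138. Tubb3, the beta-tubulin of neurons, ran from 469 to 788 by 160462_f_at, lowest on replicate 4, and from 102 to 214 by 161612_f_at, highest on replicate 4. Tubb5 ran from 774 to 1933 by its other set, 94789_r_at, again highest on replicate 6. Tubb6 was lowest on replicate 2 (197, against 285 to 400.1 elsewhere), as was Tuba4a (128, against 179 to 263).

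Gamma-tubulin (Tubg1), which starts microtubules, read 562, 621, 450.0, 451, 456, 768, 334 and 473 signal, highest on replicate 6 and lowest on replicate 7 (2.30-fold; limma, adjusted p = 0.989). Tubgcp4, a subunit of the ring that holds it, ran from 255 to 355 (1.39-fold). Beside the tubulins, Tubb4b, a widely made beta-tubulin, was below the level filter, at 53.5 to 208 signal.

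Keratins 8 and 18, the partners that make up the hepatocyte's filaments, were correlated past the test's threshold without replicates 5 and 6 and not with all 8 arrays. Krt8, the type II chain, read 2797, 2302, 2766, 2441, 1413, 1877, 1889 and 2648 signal (mean 2267 ± 497, SD, n = 8), lowest on replicates 5, 6 and 7. Krt18, the type I chain, read 2352, 1749, 2085, 1915, 2302, 1987, 1450.1 and 2391 (mean 2029 ± 325, SD, n = 8), lowest on replicate 7 and above its mean on replicate 5. Replicate 5 thus held the lowest Krt8 beside a high Krt18.

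Over 8 arrays Pearson's r between the 2 keratins was 0.21 (exact 2-sided permutation p = 0.617, adjusted 0.617 over 3 pairs), and Spearman's rho 0.41 (p = 0.327). Without replicates 5 and 6, which are also the arrays farthest from the Krt8 median, r was 0.94 over 6 arrays (exact permutation p = 0.00833, adjusted 0.025) and rho 0.83 (p = 0.0583). Leaving out replicate 5 alone gave r = 0.74 (exact permutation p = 0.0587, adjusted 0.176, n = 7). On the 6 arrays replicates 1, 3 and 8 were high and replicates 2, 4 and 7 low for both chains, the reverse of the split shown by the Actb control sets on those arrays. Neither keratin passed limma's variance test (adjusted p = 0.989 for both), and a further Krt18 set, 162191_at, read 1.0 to 11.5 signal.

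**Figure D4:**
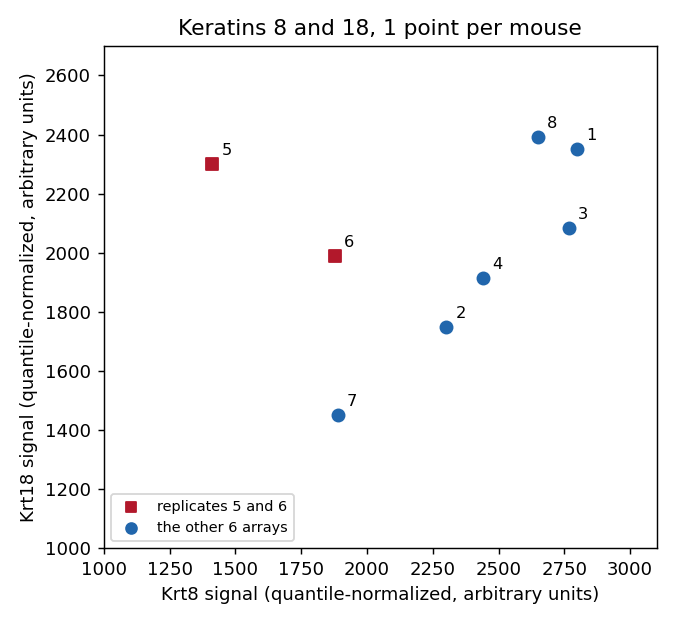
Krt18 signal (vertical) against Krt8 signal (horizontal), 1 point per mouse with its replicate number; red squares are replicates 5 and 6. The 6 blue points rise together (r = 0.94), and replicate 5 lies far to the left, at 1413 for Krt8 and 2302 for Krt18. Neither axis starts at 0.

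The genes of this pair lie on the same chromosome, and their promoters are shown as those of the partners. The windows are RefSeq's on GRCm38.p6, Krt8 at chr15:102004293-102004592 (minus strand) and Krt18 at chr15:102027966-102028265 (plus strand), with capitals for the same motifs as above.
Krt8: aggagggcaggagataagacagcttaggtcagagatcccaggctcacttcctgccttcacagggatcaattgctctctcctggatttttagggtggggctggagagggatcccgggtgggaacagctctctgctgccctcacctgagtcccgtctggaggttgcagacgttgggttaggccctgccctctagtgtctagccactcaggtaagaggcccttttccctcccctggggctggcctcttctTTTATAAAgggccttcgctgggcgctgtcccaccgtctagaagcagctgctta
Krt18: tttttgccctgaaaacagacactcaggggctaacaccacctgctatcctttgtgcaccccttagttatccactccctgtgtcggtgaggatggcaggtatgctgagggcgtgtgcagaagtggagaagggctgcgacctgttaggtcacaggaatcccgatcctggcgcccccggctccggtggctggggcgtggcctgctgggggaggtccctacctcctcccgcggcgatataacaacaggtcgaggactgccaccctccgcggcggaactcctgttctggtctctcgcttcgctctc
In Krt8 a TATAAA match and one on the opposite strand overlapped at the annotated start, and no other of the 4 motifs was matched. No match to any of the 4 lay in the Krt18 window.

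Of the other epithelial keratins, 5 genes had a measured probe set. Krt4, a keratin of squamous linings, read 931, 823, 840.5, 861, 600 on replicate 5, 425 on replicate 6, then 856 and 577 (2.19-fold) by set 100421_at. Its other set, 161647_f_at, was below the filter at 12.9 to 33.1. Krt6a, a keratin of hair follicles and healing skin, had the second lowest p. Its set 104370_s_at read 93.2, 261, 198, 330.0, 45.4, 146, 100.3 and 304 (7.27-fold; limma, unadjusted p = 0.0421, adjusted p = 0.869). Its other set, 104369_at, read 327.6, 339.5, 299, 427, 389, 349.9, 322 and 296, a 1.45-fold range, so that only 1 of the 2 sets varied widely, with replicate 4 highest by both. Krt17, another follicle keratin, read 68.0 on replicate 7 and 133 to 282 elsewhere by set 161496_r_at, while its 2 other sets were below the filter at 16.2 to 49.3. Krt6b ran from 240.2 to 457 and Krt2, a keratin of the upper epidermis, from 274 to 379.6. The other Krt2 set, 94703_at, was below the filter at 6.6 to 34.3.

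Hair keratins, which are not made by liver cells, gave measured signal for 8 genes, without a test of what was bound. Krt86 read 967, 838, 566, 595, 644, 647, 891 and 959 signal, Krt81 read 921, 518, 1046, 796, 701, 599.6, 515 and 749.6, and neither had its extremes on replicate 5 or 6. Krt36 ran from 475 to 803 and Krt33b from 327 to 467. Krt32 read 472, 312, 295, 433, 341, 123, 501 and 288, with replicate 6 alone under 287 (4.06-fold; limma, unadjusted p = 0.0706, adjusted p = 0.942), and Krt71 read 121 on replicate 5 and 187 to 375 elsewhere. A further Krt81 probe set read 1.59 to 5.97 signal and a further Krt84 set 16.6 to 33.3, both below the level filter. Of the keratin-associated proteins, which embed hair keratins, 2 of 11 genes were measured: Krtap5-1 (1137 to 1991) and Krtap13 (278 to 406.5).

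Desmin (Des), made by stellate cells and muscle, read 205, 113, 180.1, 135, 164, 209, 211 and 209 signal, with replicates 2 and 4 lowest (1.86-fold; limma, adjusted p = 0.989). Vimentin (Vim), made by mesenchymal and blood cells, was below the level filter at 108.5, 39.6, 107, 129.7, 82.3, 133, 132 and 59.0, lowest on replicate 2 as well. The pair planned for smooth muscle actin (Acta2) with Des or Vim, and the pair of Myl6 with Myh9, were not run, since Acta2, Vim and Myl6 were below the filter; 3 of 6 planned pairs were.

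Some muscle members below the level filter were highest on replicate 2. Acta2, the actin of smooth muscle and activated stellate cells, read 129.6, 254, 85.3, 23.6, 152.5, 38.3, 119.7 and 95.4 signal, highest on replicate 2. Myh11, the smooth muscle heavy chain, read 144 on replicate 2 and 12.1 to 56.9 elsewhere, and Myl9, its regulatory light chain, 102 on replicate 2 and 13.6 to 82.4 elsewhere. Replicate 2 was thus highest for all 3, while Actg2, the enteric smooth muscle actin, was highest on replicate 4 (373; 244 to 369.8 elsewhere). Of the smooth muscle marker list, 4 of 9 genes on the array were highest on replicate 2, where 8.38% of all 12422 probe sets were; these were Acta2, Myh11 and Myl9, given above, and Tagln, while Mylk was highest on replicate 5. The count is thus not separate from the 3 members given first. The list's summed signal was 3965 on replicate 2 and 3114 to 3699 elsewhere, and Mylk alone gave 2815 of it on replicate 2.

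Krt19, the bile duct and gut keratin, read 140 on replicate 2 and 5.14 to 10.4 on the 7 other arrays by set 92550_at; its other set, 102121_f_at, stayed between 4.25 and 7.79. Krt20, a keratin of the gut lining, read 356 on replicate 2 and 23.3 to 115 elsewhere, while Krt7, the other duct keratin, showed no such rank (25.8 on replicate 2, 10.5 to 27.6 elsewhere). Replicate 2 held 13 of 12422 probe sets that reached 100 signal and 4 times the next array (taken as at least 24.6, the floor on low values), where the other arrays held 0 to 7. Krt19 was the only member among the 13. The others include Tff2 and Tff3, trefoil peptides of gut mucus, Vil1, the villin of microvilli, Reg1, Zg16, Agr2, Rbp2 and Slc5a1, the gut glucose transporter. Tff2 read 7541 on replicate 2 and at most 41.7 elsewhere. Of the bile duct marker list, 4 of 7 genes were highest on replicate 2, against 8.38% of all probe sets. These were Krt19 itself, Epcam, Cldn7 and Muc1, all below the level filter. Epcam read 61.5 and Cldn7 64.9 there, with at most 52.5 and 10.1 elsewhere. The 2 measured genes of the list, Anxa4 and Onecut1, were highest on replicate 3. The list's summed signal was 1419 on replicate 2 and 949.9 to 1148 elsewhere. Since the list holds Krt19, its count and sum are not separate from the Krt19 value. The part of bile duct or gut cells in the values of other members on replicate 2 was not tested.

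The skeletal muscle members Acta1 and Myl1 were highest on replicate 7. Acta1, skeletal alpha-actin, read 571 signal on replicate 7, 244 on replicate 5 and 14.8 to 148 elsewhere. Myl1, a fast muscle light chain, read 214 on replicate 7 and 183 on replicate 5, against 22.0 to 127 elsewhere. The skeletal muscle marker list had 9 of 17 genes highest on replicate 7, Acta1 among them, against 12.7% of all probe sets, with a summed signal of 2943 there and 1441 to 1930.0 elsewhere. The adult heavy chains Myh1 and Myh2 stayed at or under 49.6 and 14.5, and the ventricular light chain Myl3 at or under 4.70 on every array. The part of muscle RNA in the high Myl12b of replicate 7 was not tested.

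**Figure D5:**
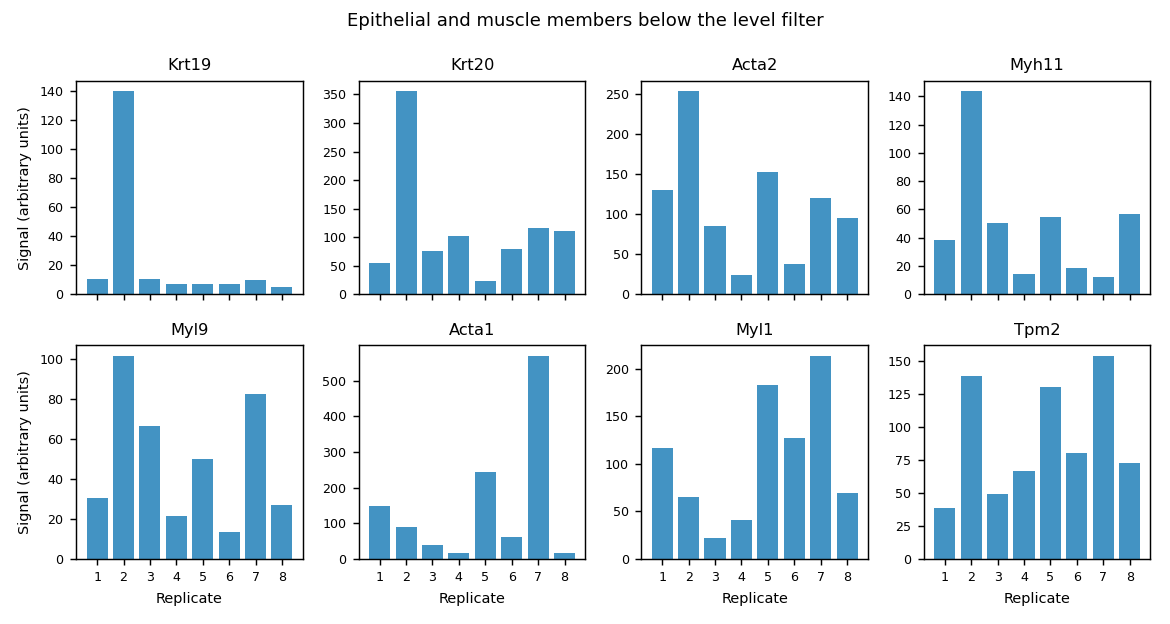
Signal (arbitrary units, linear axes from 0, each panel with its own scale) of 8 members below the level filter on replicates 1 to 8, 1 mouse each. Krt19, Krt20, Acta2, Myh11 and Myl9 are highest on replicate 2; Acta1 (571), Myl1 (214) and Tpm2 (154) are highest on replicate 7.

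Among the 3 genes that came in by name alone, Tpmt was high on replicates 5 and 6 alone: it read 2211, 2331, 2132, 2589.8, 4508, 3962, 2322 and 2338 signal (limma, unadjusted p = 0.149). The 2 sets of Krtcap2 had opposite values on replicate 5, 1692 by 97268_i_at, its lowest, and 2952 by 97269_f_at, its highest. Krtdap was below the filter, at 27.9 to 174.

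The proteins that act on these filaments were read from 5 lists, and limma's variance test called none of their measured genes (the share over the array was 0%). Counts are of genes by their brightest set, and are read against 38.6% over 2-fold and 5.67% at an unadjusted p under 0.05 over the array. Actin regulators, which cut, cap and feed filaments, had 10 of 21 measured genes over 2-fold and none at an unadjusted p under 0.05. Cfl1 (cofilin), which severs filaments, read 1254 on replicate 5 and 2984 to 3525 elsewhere, while its relative Dstn (destrin) read 4994 on replicate 5 and 2793 to 3290 elsewhere. Crosslinkers and membrane anchors had 9 of 20 over 2-fold and 1 at an unadjusted p under 0.05 by limma. That gene, Vasp, which helps filaments grow, read 127 on replicate 5 and 580 to 832 elsewhere (limma, unadjusted p = 0.0157). The folding machinery, Cct subunits and tubulin cofactors, had 6 of 14 over 2-fold and none at an unadjusted p under 0.05. Cct4 read 3221 on replicate 6 and 1530.1 to 2002 elsewhere. Cct5 ran from 2104 to 2579 by its brightest set. The other measured Cct5 set ran from 90.2 to 532, highest on replicate 5, a 5.90-fold range (limma, unadjusted p = 0.0591).

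Microtubule-associated genes had 10 of 17 over 2-fold and none at an unadjusted p under 0.05. Dynll1, the dynein light chain, read 2160.2 and 2692 on replicates 5 and 6 and 1405 to 1678 elsewhere. The list of other intermediate filaments had 4 of 6 over 2-fold. Of its measured genes only Lmna (lamin A/C) encodes a filament protein. Jup (plakoglobin), Dsp, Pkp2, Ppl and Plec encode proteins of cell junctions or linkers to which filaments attach. Both genes that limma gave an unadjusted p under 0.05 were lowest on replicate 5. Lmna read 469.6 there and 1419.9 to 1694 elsewhere by its brightest set, and Jup 147 there and 361 to 658 elsewhere. The other measured Lmna set ran from 389 on replicate 5 to 603, a 1.55-fold range (limma, unadjusted p = 0.694).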

How the data were processed

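Signals of 12488 probe sets on 8 arrays were taken from the series' value table, which holds linear intensities deposited by the authors. Per the labels' protocols, Affymetrix U74Av2 arrays were hybridised by standard procedures and scanned; for image software, background handling and scaling target, the sources used here give nothing. The trimmed mean (2% off each end) of the deposited intensities was 500.38 to 500.41 on each array, and medians differed by 26%, so arrays were quantile-normalized over the 12422 non-control probe sets; the 66 controls were passed through the same mapping. Values under 24.6 (the 20th percentile of positive values) were raised to it and log2 taken, and signals are printed before that floor. Probe sets with a mean log2 above the median (6211) entered limma's variance test (limma 3.58.1, R 4.3.3, prior variance by level, robust, 4.03 prior degrees of freedom, Benjamini-Hochberg over all 6211 at 0.05). The prior was fitted to these same 6211 probe sets, so the test sets each against the others and not against a known error. It was also run on simulated data with raised spreads wider than any member's here, which does not show its power for spreads like the members'. Pairs of partners were tested by exact permutation over all pairings. The labels name a mouse per array. The p-values of limma set a probe set's variance over the arrays against the prior for its level. Permutation p-values concern how the values of 2 genes pair over the arrays. The number of arrays limits the precision of both.

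Members and lists were chosen with earlier results of these data known. Gene lists that the text does not name, 1 list of filament regulators among them, are not reported here. Every member with a probe set above the filter could be named, and the 2 brightest and the 2 most variable of each family, every Actb set and Krt8, Krt18, Krt19, Vim, Des, Acta2 and Actg1 were given by array; Krt20, Myh11, Myl9, Acta1, Myl1, Tpmt and the genes set beside replicate 2 were chosen after their values were seen. Where several measured probe sets name a gene, the brightest is used in pairs and lists. All 100 member genes were found in RefSeq's gene table and 79 in its promoter table. The alternatives were the deposited scaling, another floor, other level filters, a prior that is not robust, genes in place of probe sets, and arrays left out.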

Additional observations from a re-analysis of the deposited data

Results flagged for a closer look

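Of 67 member probe sets checked for a single array far from the other 7 (Dixon's criterion, gap over range above 0.526), 6 were found, 8.96%, where chance flags about 1 in 20. By the same criterion 20.8% of all 6211 measured probe sets and 5 of the 54 measured members (9.26%) had such an array, so the members' share lay below that of the array. On replicate 5 lay 4 of them, and 4 were low values. Tuba1c was low on replicate 5, at 2557 signal, with the next array at 4310. Tpm3 was low there too, at 559.6, with the next at 845.8. Actb had a high value on replicate 5 by set 101578_f_at, 2688 against at most 1550 elsewhere, and a low one by 95705_s_at, 383.3 against at least 739.6. Krt32 was low on replicate 6, at 123.5, with the next at 287.8. Krt19 was high on replicate 2, at 140.2, with the next at 10.4 before the floor on low values. The criterion used log2 values after that floor, where the other 7 arrays were equal, so its gap over range was 1.0. Replicate 5 is the array with the highest 3′ to 5′ ratios of Gapdh and Actb, and their part in these values was not tested.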

How the results depend on the processing

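Arrays bore on the results more than settings did. The level filter was run again wherever arrays were left out, so the member sets counted can differ. The share of members over 2-fold was 48.1% and ran from 30.9% (without replicate 5) to 46.3% with single arrays left out, and was 22.2% without both replicates 5 and 6; over the array it was 17.9% without replicate 5. The count passing limma's variance test was 0 under all 14 alternatives, with 0 to 8 members at an unadjusted p under 0.05 (7 without replicate 5, 8 without both). The Krt8 and Krt18 relation was r = 0.94 without both, past the threshold, and 0.000604 to 0.737 with single arrays left out. The r of Tuba1c and Tubb5 ran from 0.0912 (without replicate 5) to 0.715 with single arrays left out and passed the threshold without replicate 6. Without both replicates 5 and 6 it did not pass, though rho was 1.0 (exact permutation p = 0.00278, unadjusted). The Actb and Actg1 relation was -0.47 to -0.15 with single arrays left out, changed sign to 0.0504 without replicates 5 and 6 and to 0.44 with the 3′ control set, and passed no threshold. Why these values moved was not tested. Mean member level, the shares of extremes on replicates 5 and 6, the 3′ to 5′ ratio of Actb and 495 recomputed levels of 45 named genes moved by less than the spread between arrays or their interval under the alternatives run. For the levels this says little where arrays were left out. Leaving out 1 or 2 of 8 arrays can hardly shift a mean by as much as the SD between them. No paired analysis was possible because there is 1 group. Signal near background limits the 82 sets below the filter, and sets shared with related transcripts limit the tubulin and actin values.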

Other observations

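The measured probe sets whose log2 levels followed the 3′ control set of Actb most closely over the 8 arrays were ranked after the values were seen, so the ranks are a description with no test. Set 100915_at of Myh9 had rank 10 of 6211, with Pearson's r = 0.95, while the other Myh9 set, 102108_f_at, had rank 3263 (r = -0.09) and the ordinary Actb set 101578_f_at rank 5798 (r = -0.72). Above the first stood Nfic, a transcription factor (0.98), Wdr26 (0.97), Ppara, the receptor that turns on fatty acid oxidation (0.97), and Noct, a rhythmic regulator of metabolism (0.96). Klf13, another transcription factor, followed at 0.94, and read 20.7 signal on replicate 6, 27.3 on replicate 5 and 769 to 847 on replicates 2, 4 and 7. Ppara read 1801, 1473 and 1942 on replicates 2, 4 and 7, 238 and 270 on replicates 6 and 5, and 535 to 811 on the others.

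Of the cell division list, 8 of 17 genes on the array were measured and 2 exceeded 2-fold (38.6% over the array); limma's test called none of them, and none had an unadjusted p under 0.05.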
